A study of Mus musculus with 12 samples.

Results

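The genes described here are 10 markers of the choroid plexus epithelium, Ttr, Kl, Folr1, Aqp1, Clic6, Slc4a5, Sostdc1, Calml4, Prlr and Rarres2, named as a list and found by symbol among the 55385 genes of the deposited table. All 10 were found, each with a single identifier, and all 10 passed the low-count filter. Polyadenylated RNA came from the cerebellum of C57BL/6 mice at postnatal day 14, in 3 wild-type (WT) libraries and 3 libraries of the genotype labelled EED-/-, a conditional knockout of Eed, the histone-binding core subunit of Polycomb repressive complex 2 (PRC2). The Cre line, the deleted exons and whether choroid plexus cells carry the deletion are absent from the labels, as is a statement that each library is a separate animal, so p-values measure the spread between these libraries. The series also holds 6 ChIP-seq samples, which were not analysed here.

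The choroid plexus is a folded epithelium on a vascular core inside the brain ventricles, and its cells secrete most of the cerebrospinal fluid. The hindbrain plexus hangs from the roof of the fourth ventricle beneath the cerebellum and arises next to the rhombic lip, from which cerebellar granule neurons come. How much of it is taken with a cerebellum depends on the dissection, so its genes are given here library by library. In bulk RNA, fewer plexus cells and less RNA per plexus cell cannot be told apart. PRC2 places H3K27me3, a repressive histone mark that in mammals is found mostly at CpG-rich promoters.

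Promoter sequence is shown so that the CpG content of members can be read, for the genes whose window lies wholly or almost wholly outside annotated exons. RefSeq promoter windows on GRCm38.p6 were matched for 5 of the 10 members (Kl, Aqp1, Slc4a5, Calml4 and Prlr, the last with 3 start sites, so 7 windows) and not for Ttr, Folr1, Clic6, Sostdc1 and Rarres2. The 250 bases before the start are given 5′ to 3′ for 4 genes, all on the plus strand, with every CG in capitals. The windows are chr5:150952357-150952606 for Kl, chr6:55336049-55336298 for Aqp1, chr9:62857854-62858103 for Calml4 and chr15:10176988-10177237 for the first start of Prlr. In GENCODE the last 24 bases of the Calml4 window already lie in an exon, as do 103 bases of the Slc4a5 window, which is not printed.
Kl: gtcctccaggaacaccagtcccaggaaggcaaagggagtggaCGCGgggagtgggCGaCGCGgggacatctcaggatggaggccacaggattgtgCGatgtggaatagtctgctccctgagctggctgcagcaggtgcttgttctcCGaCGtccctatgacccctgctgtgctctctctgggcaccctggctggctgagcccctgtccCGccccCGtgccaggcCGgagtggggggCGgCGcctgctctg
Aqp1: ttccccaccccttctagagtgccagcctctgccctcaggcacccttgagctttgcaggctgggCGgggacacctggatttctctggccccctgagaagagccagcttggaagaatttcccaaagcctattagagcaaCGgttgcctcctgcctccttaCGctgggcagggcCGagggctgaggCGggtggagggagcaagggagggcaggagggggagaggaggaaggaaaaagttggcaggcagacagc
Calml4: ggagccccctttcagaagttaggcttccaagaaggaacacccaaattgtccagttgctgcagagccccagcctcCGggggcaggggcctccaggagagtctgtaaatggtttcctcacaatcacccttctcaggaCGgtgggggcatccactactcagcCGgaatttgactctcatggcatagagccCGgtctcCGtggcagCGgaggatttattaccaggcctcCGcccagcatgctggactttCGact
Prlr: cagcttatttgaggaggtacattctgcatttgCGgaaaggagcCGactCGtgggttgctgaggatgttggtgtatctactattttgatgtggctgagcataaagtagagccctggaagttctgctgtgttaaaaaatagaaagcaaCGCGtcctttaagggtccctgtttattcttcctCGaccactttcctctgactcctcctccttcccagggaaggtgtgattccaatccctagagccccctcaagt
The Kl window held 13 CG pairs, an observed over expected ratio of 0.469. Calml4 held 8 (0.387), Prlr 6 (0.417) and Aqp1 5 (0.212). None of the 7 windows of members reached the CpG-rich definition used here (ratio at least 0.6 and at least 50% G or C), which 31% of 32851 promoter windows of the same length met. These windows stop before the RefSeq start, so CpG content after it was not read, nor was that of the 5 members without a window. The core letters bound by OTX factors, TAATCC on either strand, occurred in 0 of the 7 windows and in 6.25% of all windows, which is a description of these letters only.

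Levels are given as CPM, the count scaled to 1000000 counts of the TMM-adjusted library, and values given together for a genotype are in the order of replicates 1, 2 and 3. Eed, the targeted gene, stood at 20.1, 26.6 and 23.5 CPM in WT and at 11.6, 9.31 and 11.3 CPM in EED-/- (log2 change -1.12, SE 0.154, edgeR adjusted p = 0.0015). Its groups did not overlap, and the counts may include reads from exons outside the deletion. Each library held 19621814 to 20366173 counts. The 12 granule neuron markers were detected in every library, with summed levels of 5280 to 6620 CPM in WT and 636 to 862 CPM in EED-/-. Over all 18091 tested genes 11.7% were called higher and 14.1% lower in EED-/- at an edgeR adjusted p under 0.05, and 43.9% did not overlap between genotypes. The calls numbered 2125 higher and 2544 lower with TMM, 2828 and 1786 with upper-quartile scaling, and 2641 and 1865 with library size alone. These last scalings raised the median log2 change of all genes by 0.117 and 0.1.

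Most of the 10 genes varied little across the WT libraries and spread widely across the EED-/- libraries. Prlr and Folr1 also varied in WT (2.48-fold and 1.47-fold from lowest to highest), and Rarres2 varied only 1.3-fold in EED-/-. Their summed level was 790, 803 and 829 CPM in WT, against 565, 394 and 832 CPM in EED-/-. So EED-/- replicate 3 lay just above the WT range and replicate 2 lowest. Because Ttr alone made up 86.8% to 90.7% of that sum, the other 9 were also summed: 81.6, 78.3 and 77.3 CPM in WT, and 65.7, 51.9 and 101 CPM in EED-/-. In all 10 genes EED-/- replicate 3 was the highest of its genotype, and in 9 of 10 the order was replicate 3, then 1, then 2, an order found in 26.1% of all tested genes. The exception in that order was Rarres2. The median SD of log2 CPM over replicates was 0.111 in WT and 0.537 in EED-/- for the 10 genes, and 0.209 and 0.174 for all tested genes. In 9 of the 10, all but Prlr, the SD was larger in EED-/-, as in 39.5% of all tested genes.

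**Figure D1:**
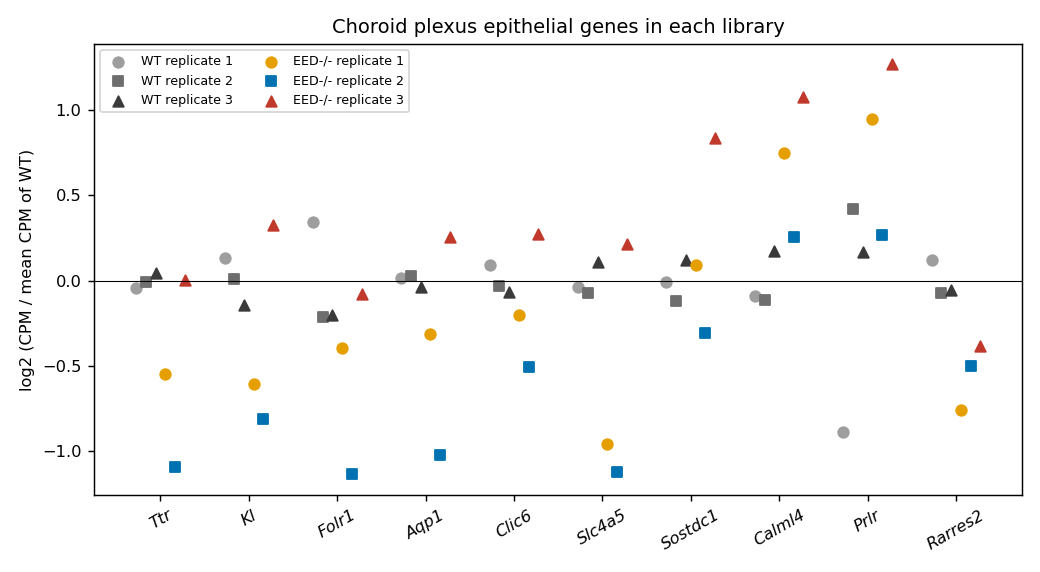
The log2 ratio of CPM to the WT mean for each of the 10 genes, with 1 point per library (grey, WT; coloured, EED-/-). EED-/- replicate 3 (red triangles) is the highest EED-/- library for every gene and replicate 2 (blue squares) the lowest for all but Rarres2. The WT libraries lie near 0 except in Prlr and, less so, in Folr1.

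Against this spread, edgeR called 0 of the 10 genes higher and 1 lower in EED-/-, beside 11.7% and 14.1% of all tested genes. At an unadjusted p under 0.05 Calml4 and Prlr were also below the threshold, both with higher values, and limma-voom called 0 of the 10 higher. The median log2 change was -0.27, beside -0.03 for all tested genes, and 3 of the 10 changes were above 0. The called gene was Rarres2. RLE size factors, upper-quartile scaling, library size alone, no low-count filter and DESeq2 called 0 of the 10 lower, beside 12.7%, 9.87%, 10.3%, 6.73% and 11.2% of all genes. Upper-quartile scaling and library size alone called Calml4 higher and DESeq2 called Prlr higher, 1 of 10 each, beside 15.6%, 14.6% and 10.2% of all genes. EED-/- replicate 3 moved the count furthest. Without it Ttr (log2 change -0.74, adjusted p = 0.0273), Kl (-0.66, adjusted p = 0.025) and Slc4a5 (-0.98, adjusted p = 0.00942) were called lower by edgeR, 3 of 10 genes beside 9.08% of all, and Rarres2 was not. The median of the 10 was then -0.57.

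Among the secreted products, Ttr encodes transthyretin, the carrier of thyroid hormone and of retinol-binding protein, and is the transcript by which choroid plexus is usually recognised. The WT libraries held 708, 725 and 752 CPM of Ttr, and the EED-/- libraries 499, 342 and 730 CPM. EED-/- replicate 3 lay within the WT range and the other two below it. The log2 change of -0.48 (SE 0.241) did not pass the test (edgeR adjusted p = 0.186). Kl encodes klotho, a co-receptor for the hormone FGF23 that is also shed into the cerebrospinal fluid (chromosome 5, 150952607 to 150993817, GRCm38). It stood at 19.4, 17.8 and 16 CPM in WT, and at 11.6, 10.1 and 22.2 CPM in EED-/-. Here EED-/- replicate 3 was above every WT library and replicates 1 and 2 below every one, with a log2 change of -0.28 (SE 0.28, edgeR adjusted p = 0.505).

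Sostdc1 encodes a secreted antagonist of BMP signals that also acts on Wnt signalling. Its values were 5.9, 5.47 and 6.46 CPM in WT and 6.34, 4.8 and 10.6 CPM in EED-/-, so the genotypes overlapped and EED-/- replicate 3 stood apart at the top. The log2 change of 0.29 (SE 0.278, edgeR adjusted p = 0.492) was -0.04 without that library. Rarres2 encodes chemerin, an attractant for immune cells (chromosome 6, 48569696 to 48572789, minus strand). It stood at 8.52, 7.46 and 7.55 CPM in WT and at 4.64, 5.55 and 6.02 CPM in EED-/-, with no overlap, as for 23.8% of all tested genes with lower EED-/- values. It fell by 0.54 on the log2 scale (SE 0.166, edgeR adjusted p = 0.0446), or 1.45-fold. That call was made in only 1 of 13 other analyses, limma-voom (adjusted p = 0.0419), which called 13.9% of all genes lower. It was not made when any single library was left out (adjusted p = 0.0619 to 0.176), nor with any other scaling. An exon of Lrrc61 overlaps Rarres2 on the opposite strand. The labels do not say whether counting used strand, so the Rarres2 counts may hold reads of that neighbour.

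Among the genes of fluid and solute transport, Aqp1 encodes the water channel of the apical membrane (chromosome 6, 55336432 to 55348555). Its WT values of 7.03, 7.08 and 6.77 CPM differed by no more than 1.05-fold. In EED-/- it stood at 5.59, 3.43 and 8.32 CPM, a 2.42-fold range that enclosed the WT values (log2 change -0.27, SE 0.285, edgeR adjusted p = 0.53). Slc4a5 encodes the sodium bicarbonate cotransporter NBCe2. It had 9.49, 9.28 and 10.5 CPM in WT and 5.02, 4.47 and 11.3 CPM in EED-/-, the widest EED-/- range of the 10 genes at 2.52-fold. Replicates 1 and 2 were below every WT library and replicate 3 above, and the log2 change of -0.5 (SE 0.33) was not called (edgeR adjusted p = 0.308).

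Clic6, of the chloride intracellular channel family, had 20.6, 18.9 and 18.4 CPM in WT and 16.8, 13.6 and 23.3 CPM in EED-/-. Its log2 change of -0.11 (SE 0.192, edgeR adjusted p = 0.71) was the smallest of the 10 and its sign changed without EED-/- replicate 2 (0.05) and with upper-quartile scaling (0.0048). Folr1 encodes the folate receptor that carries folate across the plexus into the cerebrospinal fluid. Its values were 6.57, 4.45 and 4.5 CPM in WT and 3.93, 2.35 and 4.89 CPM in EED-/-, with WT replicate 1 the highest and EED-/- replicate 2 the lowest library (log2 change -0.47, SE 0.289, edgeR adjusted p = 0.267). With 50 to 128 counts per library, Folr1 was one of the less precisely counted members.

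The remaining genes, Calml4 and Prlr, had the highest log2 changes of the 10. Calml4, a calmodulin-like light chain of brush-border protein complexes (chromosome 9, 62858080 to 62875921), stood at 1.59, 1.56 and 1.91 CPM in WT and at 2.84, 2.02 and 3.57 CPM in EED-/-. The genotypes did not overlap, as for 20.1% of all tested genes with higher EED-/- values, but EED-/- replicate 2 was close to WT replicate 3. The log2 change of 0.73 (SE 0.267) missed the threshold (edgeR adjusted p = 0.0763) and passed it with upper-quartile scaling (adjusted p = 0.0472) and library size alone (adjusted p = 0.0491). Calml4 had the fewest counts of the 10, with 29 in WT replicate 2. Prlr encodes the prolactin receptor, a cytokine receptor that signals through JAK2 and STAT5 (chromosome 15, 10177238 to 10349180). Its values were 2.51, 6.22 and 5.22 CPM in WT and 8.99, 5.6 and 11.2 CPM in EED-/-. WT replicate 1 lay far below the rest, and EED-/- replicate 2 lay within the WT range. The log2 change of 0.89 (SE 0.359) was not called by edgeR (adjusted p = 0.109). DESeq2 called it (adjusted p = 0.0471), as did the authors' deposited table (log2 change 0.92, adjusted p = 0.0466), in which Prlr was the only called gene of the 10, beside 12.7% of genes with a p-value. Exons of the model Gm21973 overlap Prlr on the same strand, so reads may be split between them.

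All 10 genes followed the rest of the set more closely within genotypes than over both together. After the mean of each genotype was removed, the Pearson correlation of a gene's log2 CPM with the mean of the other 9 was 0.992 for Ttr, 0.977 for Sostdc1, 0.976 for Aqp1, 0.961 for Clic6, 0.933 for Slc4a5, 0.915 for Kl and 0.909 for Calml4. It was 0.738 for Folr1, 0.461 for Prlr and 0.299 for Rarres2. These values describe 6 libraries that share depth and preparation within each point, and they rest mainly on the EED-/- libraries. The centred log2 CPM averaged over the 10 was 0.04, 0.06 and 0.09 in WT, against -0.12, -0.51 and 0.45 in EED-/-. With the genotype means kept, Ttr (0.838), Aqp1 (0.943) and Clic6 (0.959) stayed high, while Calml4 (0.218) and Prlr (0.041) did not. Of the 45 pairs 15 had a correlation of at least 0.8 and 10 were negative, from -0.722 for Prlr with Rarres2 to 0.963 for Kl with Clic6. Calml4 thus followed the same library order as Ttr inside the EED-/- group while lying on a different level relative to it.

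Each member was also expressed per 1000 counts of Ttr in the same library, a measure chosen after the data were seen. Such ratios do not depend on the scaling between libraries. Prlr had 3.55, 8.58 and 6.94 in WT and 18, 16.4 and 15.3 in EED-/-, a 2.78-fold higher geometric mean. Calml4 had 2.24, 2.15 and 2.54 in WT and 5.69, 5.92 and 4.89 in EED-/-, 2.38-fold higher. Sostdc1 had 8.33, 7.55 and 8.59 in WT and 12.7, 14 and 14.5 in EED-/-, 1.69-fold higher. In these genes the EED-/- libraries, so far apart in CPM, lay close together and apart from WT. Clic6 (1.32-fold) and Aqp1 (1.14-fold) also had no overlap, so that 5 of 9 ratios were higher without overlap and 0 lower, beside 30.4% and 2.94% of all tested genes. Ttr, the denominator for every gene in that background, was itself at 499 and 342 CPM in EED-/- replicates 1 and 2, below every WT library. Each of the 5 had a two-sided exact permutation p = 0.1 on log2 ratios, the smallest that 3 against 3 libraries allow, out of 9 ratios tested. Any ratio without overlap gives this p, so it adds nothing to the absence of overlap. After Benjamini-Hochberg adjustment over the 9 ratios the permutation p was 0.18.

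Kl, Slc4a5, Folr1 and Rarres2 kept a ratio to Ttr that overlapped between genotypes. Kl had 27.4, 24.6 and 21.3 counts per 1000 of Ttr in WT and 23.2, 29.5 and 30.4 in EED-/- (1.13-fold, exact permutation p = 0.3). Slc4a5 had 13.4, 12.8 and 14 in WT and 10.1, 13.1 and 15.4 in EED-/- (0.946-fold, exact permutation p = 0.8), and Folr1 was at 1.02-fold. Rarres2 ranged from 8.24 to 16.2 in EED-/-, with replicate 2 the highest, against 10 to 12 in WT. Ttr itself, set against the geometric mean of the other 9, was 103, 104 and 106 times that mean in WT and 79, 70.4 and 77.2 times in EED-/-, without overlap. By the same measure Prlr (2.25-fold), Calml4 (1.9-fold) and Sostdc1 (1.29-fold) were higher without overlap and Slc4a5 (0.681-fold) and Aqp1 (0.835-fold) lower without overlap. Of genes that are no member, 13.3% were higher and 7.56% lower without overlap in their ratio to the geometric mean of all 10. Aqp1 changed sides with the reference, while Prlr, Calml4 and Sostdc1 were higher with both. The references are not independent, as both hold Ttr for these genes. Prlr, Calml4 and Sostdc1 were also the only genes of the 10 with a log2 change above 0 in CPM, so the second reference adds no separate support.

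**Figure D2:**
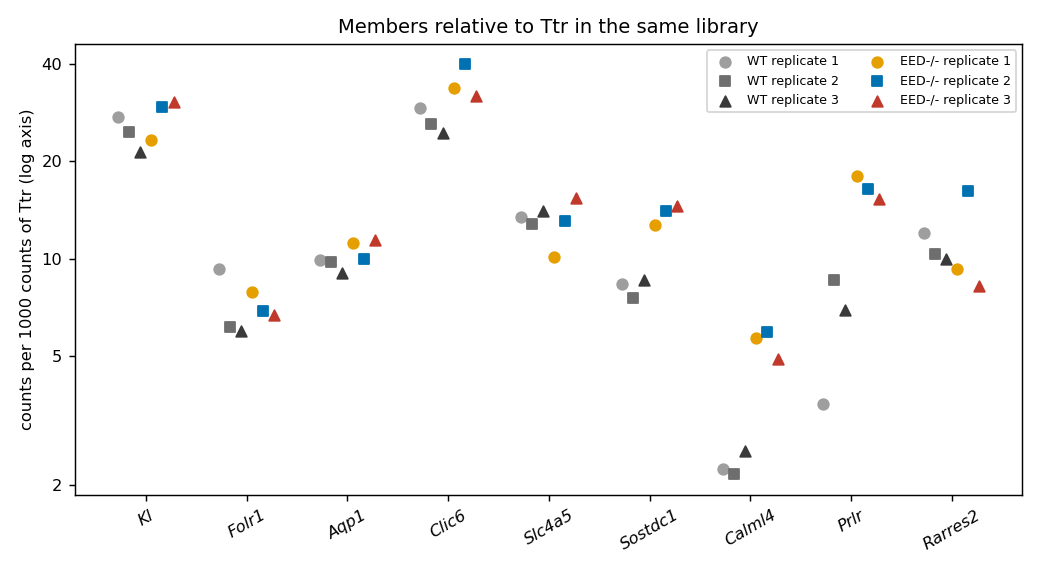
Counts of 9 members per 1000 counts of Ttr in the same library, on a log axis, with 1 point per library (grey, WT; coloured, EED-/-). For Sostdc1, Calml4 and Prlr the EED-/- points lie together above all WT points (Prlr 15.3 to 18 against 3.55 to 8.58), while Kl, Folr1, Slc4a5 and Rarres2 overlap.

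Levels of different genes were compared as CPM per kilobase of annotated exon. In WT libraries Ttr stood at 614 ± 18.5 CPM per kilobase (SD, n = 3) and Clic6 came next at 4.94 ± 0.297. Sostdc1 (3.34 ± 0.278) and Rarres2 (2.95 ± 0.221) followed, and their WT ranges overlapped. Aqp1 (2.65 ± 0.0635), Folr1 (2.25 ± 0.526), Kl (1.9 ± 0.181) and Slc4a5 (1.68 ± 0.111) formed a descending run in which each neighbour's range overlapped the next. Calml4 (0.463 ± 0.054) and Prlr (0.303 ± 0.125) were lowest, and their ranges did not overlap. In EED-/- libraries Ttr was again first at 442 ± 165 CPM per kilobase. Clic6 (4.57, range 3.47 to 5.95) and Sostdc1 (4.07, range 2.69 to 5.96) came next and overlapped, and Calml4 (range 0.555 to 0.981) and Prlr (range 0.365 to 0.731) were lowest and overlapped too. The exon length of Prlr, 15.3 kilobases over all isoforms, lowers its value per kilobase relative to a count over any single isoform.

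A wider list of 46 choroid plexus genes, many of them shared with other brain cells, was read in the same fit. Of 45 found, 43 were tested, and 7 rose and 3 fell, beside 11.7% and 14.1% of all tested genes. The median log2 change was -0.01, against -0.03 for all. The changes of Sulf1, Igfbp2, Htr2c, Spint2 and Cldn3 were called in all 13 other analyses. Htr2c, the serotonin receptor 5-HT2C of the plexus and of neurons, rose from 42.1, 64 and 69.2 CPM in WT to 138, 103 and 139 CPM in EED-/- (log2 change 1.11, SE 0.202, edgeR adjusted p = 0.00519). Igfbp2, a binding protein of insulin-like growth factors, rose from 48.9 to 58.1 CPM to 90 to 135 CPM (2.06-fold, edgeR adjusted p = 0.00243). Its highest library was EED-/- replicate 2, where the 10 members were lowest.

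The heparan sulfatase Sulf1 rose 2.02-fold, from 10.2 to 10.5 CPM to 19.1 to 23.6 CPM (edgeR adjusted p = 0.00119). The tight junction gene Cldn3 fell from 1.77 to 2.41 CPM to 0.805 to 0.941 CPM (2.41-fold, edgeR adjusted p = 0.00845). Its EED-/- replicates 1, 2 and 3 held only 17, 20 and 17 counts, too few to order them. Spint2, a protease inhibitor of epithelia, fell 1.53-fold. Also called were Cp, which encodes ceruloplasmin (1.91-fold higher; adjusted p = 0.0535 without WT replicate 3), and the nucleoside and monoamine transporter Slc29a4 (1.65-fold lower; adjusted p = 0.0711 without EED-/- replicate 1 and 0.0834 without EED-/- replicate 3). The thyroid hormone transporter Slco1c1 was 1.36-fold higher (adjusted p = 0.0581, 0.0647 and 0.0779 without WT replicate 3, EED-/- replicate 1 and EED-/- replicate 2). The sulfate transporter Slc13a4, which meningeal cells also express, was 1.49-fold higher and kept its call only when WT replicate 1 was the library left out (otherwise adjusted p = 0.0556 to 0.121). All p-values in these sentences are from edgeR.

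The library order of the 10 genes recurred in part of the wider list and in granule neuron genes (8 of 12, 66.7%). In 19 of the 43 the EED-/- order was replicate 3, then 1, then 2 (44.2%, beside 26.1% of all tested genes), and replicate 3 was the highest in 32 (74.4%, beside 39.8%). The correlation of deviations with the mean of the 10 was at least 0.9 for 8 of the 43 (18.6%), namely Atp1b1, Car12, Cldn1, Cldn2, Krt8, Lmx1a, Sulf1 and Wfikkn2, beside 1.88% of all tested genes. The median of that correlation was 0.6 for the wider list, 0.72 for the granule neuron list, 0.37 for the ependymal list and 0.01 for all tested genes. These correlations too rest mainly on the EED-/- libraries, since the mean of the 10 hardly moved within WT. The ratio to Ttr was higher in EED-/- without overlap for 24 of the 43 and lower for 1, beside 30.4% and 2.94%. Otx2, the transcription factor that specifies the plexus and is also made by cerebellar progenitors, stood at 18.4, 24 and 17.6 CPM in WT and 16.1, 13.6 and 13.9 CPM in EED-/- (log2 change -0.46, edgeR adjusted p = 0.062). It was named after its values were seen.

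**Figure D3:**
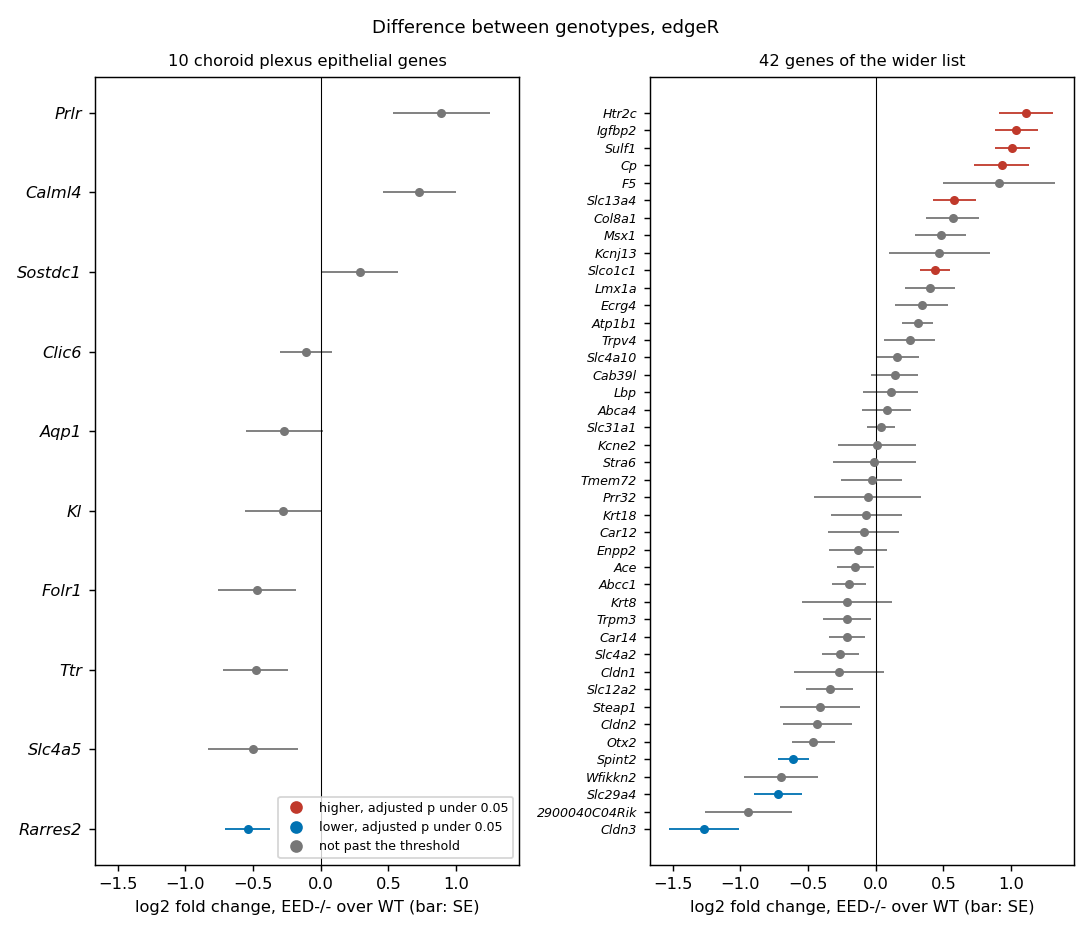
The log2 fold change of EED-/- over WT from edgeR, with its SE, for the 10 genes (left) and 42 of the 43 tested genes of the wider list (right), coloured where the adjusted p was under 0.05. On the left Rarres2 alone passed, lower, and the uncalled genes run from -0.5 (Slc4a5) to 0.89 (Prlr), while on the right 6 genes were higher and 3 lower.

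Genes coding for ligands, receptors and transport partners of the 10 were listed as well. Of 30 names 29 were found and 25 tested, and 4 rose and 4 fell, beside 11.7% and 14.1% of all tested genes. Among partners of transthyretin, Rbp4, the retinol carrier that travels bound to it, rose from 0.923, 1.39 and 1.81 CPM to 4.31, 4.33 and 2.89 CPM (2.79-fold, edgeR adjusted p = 0.00825). Lrp2, which encodes the endocytic receptor megalin, rose from 0.667, 0.59 and 1.24 CPM to 2.13, 2.63 and 2.25 CPM (2.79-fold, edgeR adjusted p = 0.0115). Among ligands that Sostdc1 can bind, Bmp7 rose from 11.1, 11.1 and 9.61 CPM to 23.4, 30.3 and 19.8 CPM (edgeR adjusted p = 0.00194) and Bmp4 rose 1.81-fold (edgeR adjusted p = 0.00635). These calls were made in all 13 other analyses, and none of these genes had EED-/- replicate 3 as its highest library. Bmp7 and Bmp4 ran in the EED-/- order replicate 2, then 1, then 3, as did the summed meningeal fibroblast list described below. Which cells made these transcripts was not tested.

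Fgf23, whose product signals through klotho, fell from 0.667, 0.912 and 0.672 CPM to 0.237, 0.329 and 0.196 CPM (edgeR adjusted p = 0.0184), but DESeq2 did not call it (adjusted p = 0.137), and it was not called without WT replicate 2 or 3 or EED-/- replicate 1 or 3 (adjusted p = 0.0522 to 0.0837). Stat5b (1.38-fold lower), which acts below the prolactin receptor, the bicarbonate cotransporter Slc4a4 (1.29-fold lower) and the proton-coupled folate transporter Slc46a1 (1.35-fold lower) were called in 5, 4 and 1 of 13 other analyses. With 1 library left out, Stat5b kept its call only without WT replicate 2, Slc4a4 only without WT replicate 1, and Slc46a1 only without WT replicate 2. Their adjusted p-values otherwise ran from 0.056 to 0.115, 0.0654 to 0.154 and 0.0822 to 0.186. Prl, the ligand of Prlr, had 0 counts in all 6 libraries. Cmklr1, a chemerin receptor, stood at 3.06 to 5.54 CPM in WT and 3.79 to 4.28 CPM in EED-/- (edgeR adjusted p = 0.954).

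Lists of markers of other cells differed in how far they shared the library order of the 10 genes. Of 16 meningeal fibroblast genes 14 rose and 1 fell, beside 11.7% and 14.1% of all tested genes, with summed levels of 548 to 658 CPM in WT and 1050, 1380 and 1030 CPM in EED-/-, highest where the 10 were lowest. Igf2 and Col3a1 rose 2.61-fold and 2.71-fold (edgeR adjusted p = 0.000467 and 0.00121), and Cemip fell 2.67-fold. Of 19 tested ependymal and cilia genes 4 rose and 2 fell, beside the same 11.7% and 14.1%. They included Tekt1 (2.45-fold higher) and Enkur (2.66-fold higher), both of the ciliary axoneme, and Mia (3.43-fold lower). The summed level of that list was 119 to 136 CPM in WT and 130, 147 and 151 CPM in EED-/-. In 14 of the 19 (73.7%, beside 39.8% of all tested genes) EED-/- replicate 3 was the highest of its genotype, and in 4 (21.1%, beside 26.1%) the order was replicate 3, then 1, then 2. Of 16 endothelial and mural genes 4 rose and 0 fell, beside that same background, also by DESeq2 and limma-voom and with 0 lower at an unadjusted p under 0.05, with sums of 687 to 730 CPM in WT and 757 to 887 CPM in EED-/-. Acta2, a mural cell actin, rose 1.9-fold (edgeR adjusted p = 0.0096), and the endothelial receptors Kdr and Tek were 1.38-fold and 1.34-fold higher, both calls being lost when EED-/- replicate 1 or 2, or else WT replicate 3, was left out (edgeR adjusted p = 0.0599 to 0.067 for Kdr and 0.0978 to 0.103 for Tek).

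The blood genes summed to 559, 258 and 313 CPM in WT and to 1780, 1270 and 360 CPM in EED-/-, lowest in the EED-/- library where the 10 genes were highest. By edgeR 0 of 6 blood genes were called, 5 were higher at an unadjusted p under 0.05, DESeq2 called 1 and limma-voom 0. All 6 had log2 changes above 0, with a median of 1.52. Alas2, which makes haem in red cell precursors, was at 8.47 to 34.9 CPM in EED-/- (edgeR adjusted p = 0.0763, and 0.00416 without EED-/- replicate 3). All 12 granule neuron genes fell, beside 14.1% of all tested genes, from 3.65-fold (Calb2) to 18.4-fold (Cbln3). The genes named by p-value were Grin2c (6.78-fold), Neurod2 (6.82-fold) and Zic1 (5.32-fold). Within EED-/- their sums of 728, 636 and 862 CPM had the same order as the 10 genes, as did 8 of the 12 genes singly. No listed marker gene of these 4 other cell lists or of the granule list was at 0 in all libraries, and the part of these cells in the results above was not tested.

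**Figure D4:**
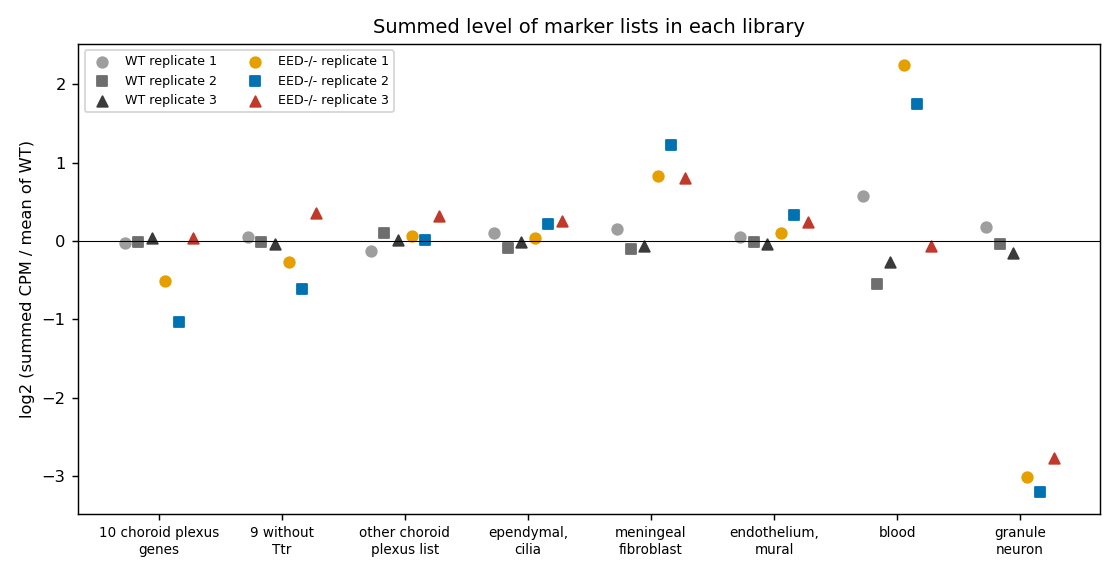
The log2 ratio of each list's summed CPM to its WT mean, with 1 point per library (grey, WT; coloured, EED-/-). The 10 choroid plexus genes run from 394 CPM in EED-/- replicate 2 to 832 CPM in replicate 3, the meningeal and blood lists are lower in replicate 3 than in replicate 2, and the granule neuron list lies far below WT in all 3 EED-/- libraries.

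Other tested genes with a mean of at least 1 CPM and a log2 span of at least 1 numbered 5134. From these, genes with gene-model, clone or mitochondrial symbols were left out before ranking. Of the rest, Car12 (Pearson correlation 0.964) and Cldn1 (0.939) were most like the mean of the 10 over the 6 libraries. Both are on the wider choroid plexus list. Car12 encodes a membrane carbonic anhydrase, an enzyme class that supplies bicarbonate for fluid secretion, and stood at 6.98, 8.58 and 8.11 CPM in WT and 7.15, 4.8 and 10.4 CPM in EED-/-. Cldn1, a tight junction protein, stood at 4.98, 6.06 and 6.25 CPM in WT and 3.65, 3.01 and 7.68 CPM in EED-/-. In both, EED-/- replicate 3 was above every WT library and replicate 2 below every one. Next came Ccdc15 (0.918), Zc3h11a (0.905), Fgf1 (0.902), Rsl1 (0.899), Olfr784 (0.887) and Fbxo40 (0.887), on none of the lists. Leaving out a single library moved the correlation to as low as 0.895 for Car12, 0.882 for Cldn1, 0.745 for Fgf1 and 0.638 for Olfr784, each without EED-/- replicate 2. These are descriptions over 6 libraries, picked as the highest among many genes.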

How the data were processed

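Values came from the deposited table of expected counts, 1 column per library, which the authors made as estimated counts per gene and did not scale (per library, 22.46% to 23.65% of values differed from a whole number by more than 1e-06). Their deposited table of differences gives a log2 fold change and an adjusted p-value, per the file headers in DESeq2's column names. There the adjusted p-value was 1 for 20212 genes without a p-value. Named without roles in the submitters' processing notes are Bowtie2 2.4.1, MACS2, Salmon 1.1.0, Trimmomatic 0.36 and DESeq2 1.26.0, with builds mm10 and GRCm38. An estimated count divides reads that similar or overlapping genes share.

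Counts were rounded, filtered with edgeR's filterByExpr (18091 genes kept) and tested with edgeR 4.0.16 in R 4.3.3 (TMM, robust quasi-likelihood F test, genotype only, two-sided, Benjamini-Hochberg over all tested genes, threshold 0.05). The SE is the size of the log2 change over the root of F. Alternatives used limma 3.58.1, DESeq2 1.42.0, other scalings, no filter, a replicate block and leaving out each library. The procedure was tested on simulated data. Log2 CPM for correlations used a prior count of 2. Exon lengths and positions came from GENCODE M21 on GRCm38, promoters from RefSeq. Reads carried no stated molecular identifiers. Libraries of 1 genotype differed beyond sampling noise (5.92 to 36.9 chi-square units per degree of freedom).

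The members and lists were chosen with earlier results of these data known. Named genes were Eed, the 10 members, called genes of each list by smallest adjusted p (up to 10 of the wider list, 8 partners and the most abundant partner, 3 of each other list, or the smallest p), and the 8 genes most like the members. Otx2, Cmklr1, Prl, F5 and Kcnj13 and the genes listed by likeness were named after their values were seen. Of the wider list 1 called gene is not reported here, and the 6 ChIP-seq samples were not analysed here.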

Additional observations from a re-analysis of the deposited data

How the results depend on the processing

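The 10 genes called higher numbered 0 with TMM and 1 with upper-quartile scaling, library size alone or DESeq2. Those called lower numbered 1 with TMM and 0 with RLE size factors, upper-quartile scaling, library size alone, no low-count filter, DESeq2 or the replicate block. Leaving out single libraries gave 0 to 3 lower and a median log2 change of -0.57 to -0.04 for the 10. In the wider list 7 were higher with TMM and 8 with RLE size factors, no low-count filter or DESeq2. Upper-quartile scaling or library size alone gave 9. The replicate block gave 4, and leaving out a library gave 4 to 7 (4 without WT replicate 3, EED-/- replicate 1 or 2). Over all genes, leaving out a library gave 1205 to 2176 higher and 1335 to 2476 lower, against 2125 and 2544, with the fewest in both directions without EED-/- replicate 1. Signs changed for Clic6 (0.0048 with upper-quartile scaling; -0.29 to 0.05 with a library left out, positive without EED-/- replicate 2) and Sostdc1 (-0.04 to 0.51, negative without EED-/- replicate 3). The cause was not tested. Of 546 values of 42 named genes under alternatives, 466 kept direction and side of the threshold, 70 lost the call, 7 gained it and 3 changed sign.

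The labels do not say whether replicate numbers pair the libraries. Same-numbered WT and EED-/- libraries had correlations of their deviations from group means of 0.028, -0.233 and -0.001. Differently numbered libraries had -0.188 to 0.198, highest for WT replicate 2 with EED-/- replicate 3. Such weak values, from groups of 3, cannot show whether libraries were paired. With the replicate block 1505 genes were higher and 1706 lower. Counts limit Calml4 most. Groups of 3 cannot reach an exact permutation p below 0.1.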

Other observations

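In the wider choroid plexus list, F5, which encodes coagulation factor V, stood at 6.72, 5.69 and 5.84 CPM in WT and at 6.86, 7.1 and 20.3 CPM in EED-/- replicates 1, 2 and 3 (log2 change 0.91, edgeR adjusted p = 0.152). The potassium channel gene Kcnj13 of the plexus stood at 2.36, 3.17 and 2.02 CPM in WT and at 1.89, 3.2 and 5.38 CPM in EED-/- (log2 change 0.47, edgeR adjusted p = 0.39). Both had their highest value in EED-/- replicate 3, the library with the most Ttr of its genotype, and both were named after their values were seen.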
